A study of Rattus norvegicus with 18 samples.

Results

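The MHC class II antigen presentation genes are described here in rat knee synovium, as 8 listed genes: the invariant chain gene Cd74, the class II chain genes RT1-Da, RT1-Db1, RT1-Ba and RT1-Bb, the peptide-loading genes RT1-DMa and RT1-DMb, and the transactivator gene Ciita. A probe counted as a member when the gene name given by the array files was one of these names or a current synonym. Of the 8 genes, 7 had a probe and all 7 were tested, among 23606 genes or transcripts tested in all. They had 12 probes between them, of which 11 passed the filter on dim probes. No probe carried the name RT1-DMb, which was not analysed here.

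MHC class II molecules are pairs of an alpha and a beta chain that show peptides from engulfed proteins to CD4 T cells. They are made mainly by dendritic cells, macrophages and B cells, and interferon gamma induces them in fibroblasts and other cells. The invariant chain, Cd74, escorts new class II pairs to endosomes and blocks their groove until proteases cut it away, after which the DM dimer exchanges the last fragment for a peptide. Ciita switches the genes on without touching DNA itself, by docking on the factors that hold the X and Y boxes of their promoters. Class II bearing cells in inflamed synovium are a textbook feature of rheumatoid and experimental arthritis.

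Total RNA of knee synovium from male Lewis rats aged 6 to 8 weeks was hybridised to 18 one-colour Agilent arrays, 3 in each of 6 groups. The groups were AIA-cold-WTD and AIA-hot-WTD (adjuvant-induced arthritis under the cold or the hot condition, treated with the herbal formula WTD), AIA-cold and AIA-hot (the same models with no formula named), AIA (adjuvant-induced arthritis alone) and normal control rats. The titles of the treated arrays carry a letter that the labels do not explain. In AIA-cold-WTD replicate 1 has another letter than replicates 2 and 3, and in AIA-hot-WTD all 3 letters differ, so whether the 3 arrays of a treated group had the same treatment is not known, and n = 3 there rests on the group label. How the cold and hot conditions were applied is not given in the sources used here. Groups of 6 rats are described, but the labels do not tie each array to 1 rat, so p-values measure the spread between these samples. Values are log2 signals relative to each array's 75th percentile, and 1 unit is a doubling.

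One array stood apart before any result. On control replicate 1 the 75th percentile of signal was 68.9, against 201 to 331 on the other 17 arrays, and 43.3% of probes were well above background, against 56.4% to 76.6%. The members' differences from control, and those of other genes whose sign or size depends on it, are therefore also given without it. No spot was saturated on any array.

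The promoters of the members show what they share in sequence. Of the 8 genes, 6 matched a promoter in the RefSeq set for the rat assembly GRCr8, which runs from 250 bases before to 50 after each gene start. The stretches below were chosen because they hold matches to motifs for the X and Y boxes through which Ciita acts, or to the Y motif alone in RT1-Ba. Capitals mark matches to GNNACNGATG, taken as the X box, and to TGATTGG, taken as the Y box. The letters of both motifs were settled after these sequences had been seen, and the motifs do not overlap each other.
RT1-Da, chr20:4515327-4515376, plus strand: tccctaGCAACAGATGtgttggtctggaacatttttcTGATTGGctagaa
RT1-Db1, chr20:4560232-4560280, minus strand: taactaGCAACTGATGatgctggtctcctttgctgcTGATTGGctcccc
RT1-Bb, chr20:4604169-4604217, minus strand: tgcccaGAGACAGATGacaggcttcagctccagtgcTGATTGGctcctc
RT1-DMa, chr20:4712389-4712438, minus strand: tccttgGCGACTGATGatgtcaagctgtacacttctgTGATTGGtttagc
RT1-Ba, chr20:4576974-4577024, plus strand: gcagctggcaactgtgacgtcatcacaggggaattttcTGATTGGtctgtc

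On either strand, 4 of the 6 member promoters held the X motif, against 2.84% of 33469 promoters, and 5 held the Y motif, against 7.06%. Because the letters were settled after the member sequences had been seen, these counts and those of the pair below are descriptive and test nothing. In RT1-Da, RT1-Db1, RT1-Bb and RT1-DMa the X motif was followed on the gene's strand by the Y motif, with 20 or 21 bases between them. That arrangement, with up to 40 bases allowed between, was in 9 of the 33469 promoters, or 0.0269%. Those 9 belonged to 8 genes, namely these 4 members together with RT1-Db2, RT1-DOb, Asb15 and Hsd17b7. RT1-Db2 and RT1-DOb are class II beta chain genes themselves. RT1-Ba held the Y motif only, and Cd74 held neither of these letter strings. Boxes spelled otherwise were not searched for, so a missing match does not mean a missing box. The RefSeq set used here had no entry for Ciita or RT1-DMb.

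The pair of RT1-Ba probes is shown because it decides which values stand for that gene. One probe was designed on the RefSeq transcript and lies at chr20:4700973-4701032 in the files' rn4 build, while the other was designed on an mRNA of the RT1.B-1 alpha chain and has no position in the files. They start at bases 302 (RT1.B-1 alpha mRNA) and 324 (RefSeq transcript) of their transcripts and cover almost the same stretch. Capitals mark the bases that differ where the 2 probes align.
RT1-Ba, RefSeq transcript: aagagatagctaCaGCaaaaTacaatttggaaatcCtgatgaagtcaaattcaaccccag
RT1-Ba, RT1.B-1 alpha mRNA: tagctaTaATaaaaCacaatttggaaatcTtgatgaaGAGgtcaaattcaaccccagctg

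Over the 57 aligned columns, 49 bases were shared, 5 were mismatched and 3 were present in the RT1.B-1 probe only. The RT1.B-1 probe was well above background on all 18 arrays, between -0.50 and 2.05. The RefSeq probe was well above background on 3 arrays, which were AIA-cold-WTD replicates 2 and 3 and control replicate 2, and failed the filter on dim probes. All values for RT1-Ba below come from the RT1.B-1 probe. Class II chain genes vary between rat strains more than most genes, so a probe's signal can depend on the allele as well as on the amount of RNA. Which of the 2 sequences the Lewis allele is closer to was not tested.

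**Figure D1:**
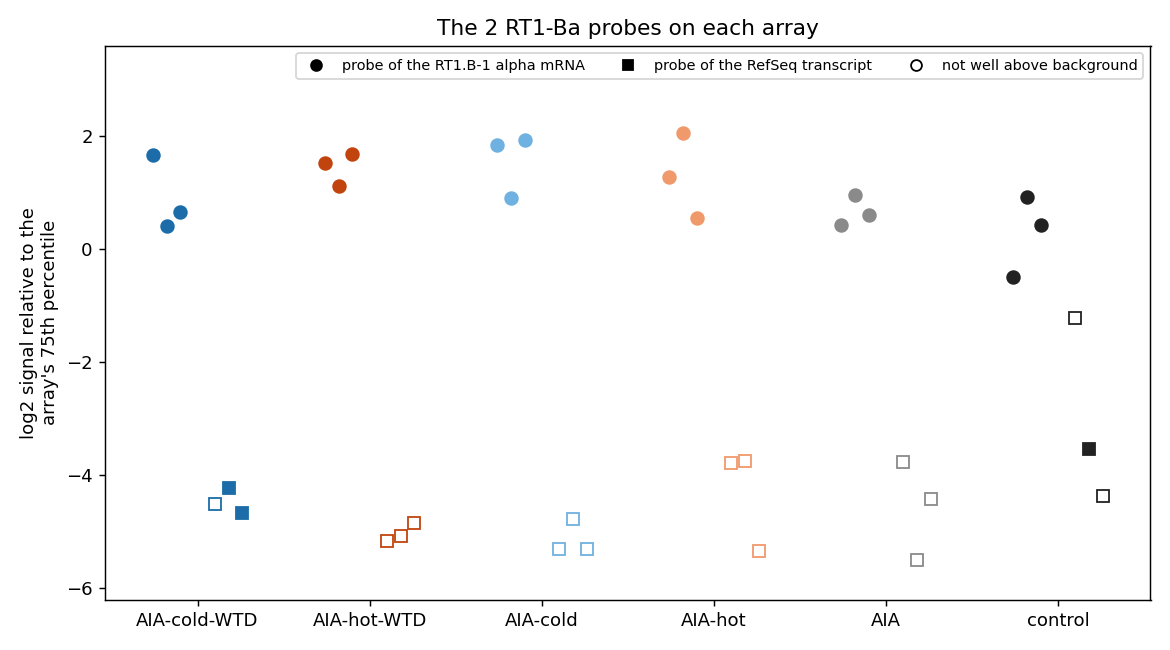
Log2 signal relative to each array's 75th percentile (vertical axis) of both RT1-Ba probes on the 3 arrays of each group (horizontal axis). Circles are the probe of the RT1.B-1 alpha mRNA, squares the probe of the RefSeq transcript, and open symbols are not well above background. Circles lie between -0.50 and 2.05 on all 18 arrays, and 3 of the 18 squares are filled.

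Cd74, the invariant chain gene, was read by 1 probe at chr18:56765468-56765527 (rn4). Its level was 7.10, 5.72 and 5.62 in AIA-cold-WTD and 6.50, 6.33 and 6.47 in AIA-hot-WTD. It was 6.66, 5.82 and 7.08 in AIA-cold and 6.75, 7.15 and 5.52 in AIA-hot. It was 5.77, 5.58 and 5.88 in AIA and 4.27, 5.97 and 5.41 in control. The 3 AIA-hot-WTD arrays lay close together and above every control array, whereas AIA-cold-WTD, AIA-cold and AIA-hot each held at least 1 array inside the control range. The AIA-cold mean was 2.47-fold the control mean (log2 difference 1.30 ± 0.50, SE, 95% interval 0.23 to 2.37, n = 3 each, limma adjusted p = 0.182).

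RT1-Da encodes the alpha chain of the RT1-D molecule, the rat's counterpart of human HLA-DR, and its probe lies at chr20:4641104-4641163. It had 5.46, 4.40 and 4.38 in AIA-cold-WTD, 5.13, 4.59 and 5.08 in AIA-hot-WTD, and 5.46, 4.44 and 5.60 in AIA-cold. It had 5.21, 5.64 and 4.00 in AIA-hot, 4.33, 4.21 and 4.43 in AIA, and 2.26, 4.60 and 4.03 in control. The control arrays spanned 2.34 log2 units, the widest range of any tested member within a group, and replicate 1 set it. AIA-cold stood 1.54 ± 0.54 above control (limma adjusted p = 0.155), with an overlap between the arrays of both groups.

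RT1-Db1 encodes the beta chain that pairs with RT1-Da. It had 4.28, 2.99 and 3.18 in AIA-cold-WTD, 3.66, 3.67 and 3.99 in AIA-hot-WTD, and 4.23, 2.92 and 4.30 in AIA-cold. It had 3.81, 4.51 and 2.57 in AIA-hot, 2.84, 2.66 and 2.81 in AIA, and 1.77, 3.03 and 2.67 in control. All 3 AIA-hot-WTD arrays were above all 3 control arrays, and all 3 AIA-cold arrays were above all 3 AIA arrays. The tested probe lies at chr20:4672677-4672736, and differed by 1.33 ± 0.49 between AIA-cold and control (limma adjusted p = 0.170). A second bright probe of the gene gave 1.30 for the same difference and a further, dim probe 1.20.

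RT1-Ba and RT1-Bb encode the alpha and beta chains of RT1-B, the counterpart of human HLA-DQ. RT1-Ba had 1.67, 0.41 and 0.66 in AIA-cold-WTD, 1.54, 1.13 and 1.69 in AIA-hot-WTD, and 1.85, 0.90 and 1.93 in AIA-cold. It had 1.28, 2.05 and 0.55 in AIA-hot, 0.43, 0.97 and 0.61 in AIA, and -0.50, 0.93 and 0.44 in control. The AIA-hot-WTD arrays again cleared the control arrays, while AIA-cold replicate 2, at 0.90, lay just under control replicate 2, at 0.93. The AIA-cold minus control difference was 1.27 ± 0.44 (limma adjusted p = 0.151).

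RT1-Bb, probed at chr20:4730533-4730583, had 6.10, 4.75 and 4.78 in AIA-cold-WTD, 5.70, 5.00 and 5.55 in AIA-hot-WTD, and 5.81, 4.80 and 5.99 in AIA-cold. It had 5.57, 6.10 and 4.45 in AIA-hot, 4.62, 4.48 and 4.81 in AIA, and 2.76, 4.77 and 4.14 in control. It was the only tested member whose AIA-cold arrays all exceeded the control arrays, by 4.80 against 4.77 at the nearest pair, 1 of 7 members against 10.8% of genes. Its AIA-cold mean was 3.13-fold the control mean (1.65 ± 0.53, 95% interval 0.51 to 2.78, limma adjusted p = 0.126). A second probe of RT1-Bb gave 1.48.

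RT1-DMa encodes the alpha chain of the DM dimer, which loads peptides inside endosomes, and its probe maps within chr20:4843704-4844066. It had 3.40, 2.69 and 2.77 in AIA-cold-WTD, 3.09, 2.80 and 3.11 in AIA-hot-WTD, and 3.02, 2.43 and 3.47 in AIA-cold. It had 3.27, 3.70 and 2.40 in AIA-hot, 2.82, 2.58 and 2.64 in AIA, and 0.92, 3.17 and 3.06 in control. Control replicates 2 and 3 were above all 3 AIA arrays, and only replicate 1 lay low. The AIA-cold minus control difference of 0.59 ± 0.49 (limma adjusted p = 0.534) became -0.14 without that array.

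Ciita, the master switch, was dim on every array, with a probe at chr10:5087172-5087231. It had -1.57, -3.31 and -3.10 in AIA-cold-WTD, -2.54, -3.01 and -2.81 in AIA-hot-WTD, and -2.78, -3.29 and -2.76 in AIA-cold. It had -2.42, -2.01 and -3.34 in AIA-hot, -3.15, -2.92 and -2.70 in AIA, and -1.63, -3.02 and -3.53 in control. Control replicate 1, lowest for the other 6 genes, was the second highest of 18 for Ciita. The lowest signal well above background on that array was -1.86, close to its Ciita value of -1.63, whereas on the other arrays that lowest signal was -3.40 or lower. The AIA-cold minus control difference was -0.22 ± 0.49 (limma adjusted p = 0.841), and 0.33 without control replicate 1.

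**Figure D2:**
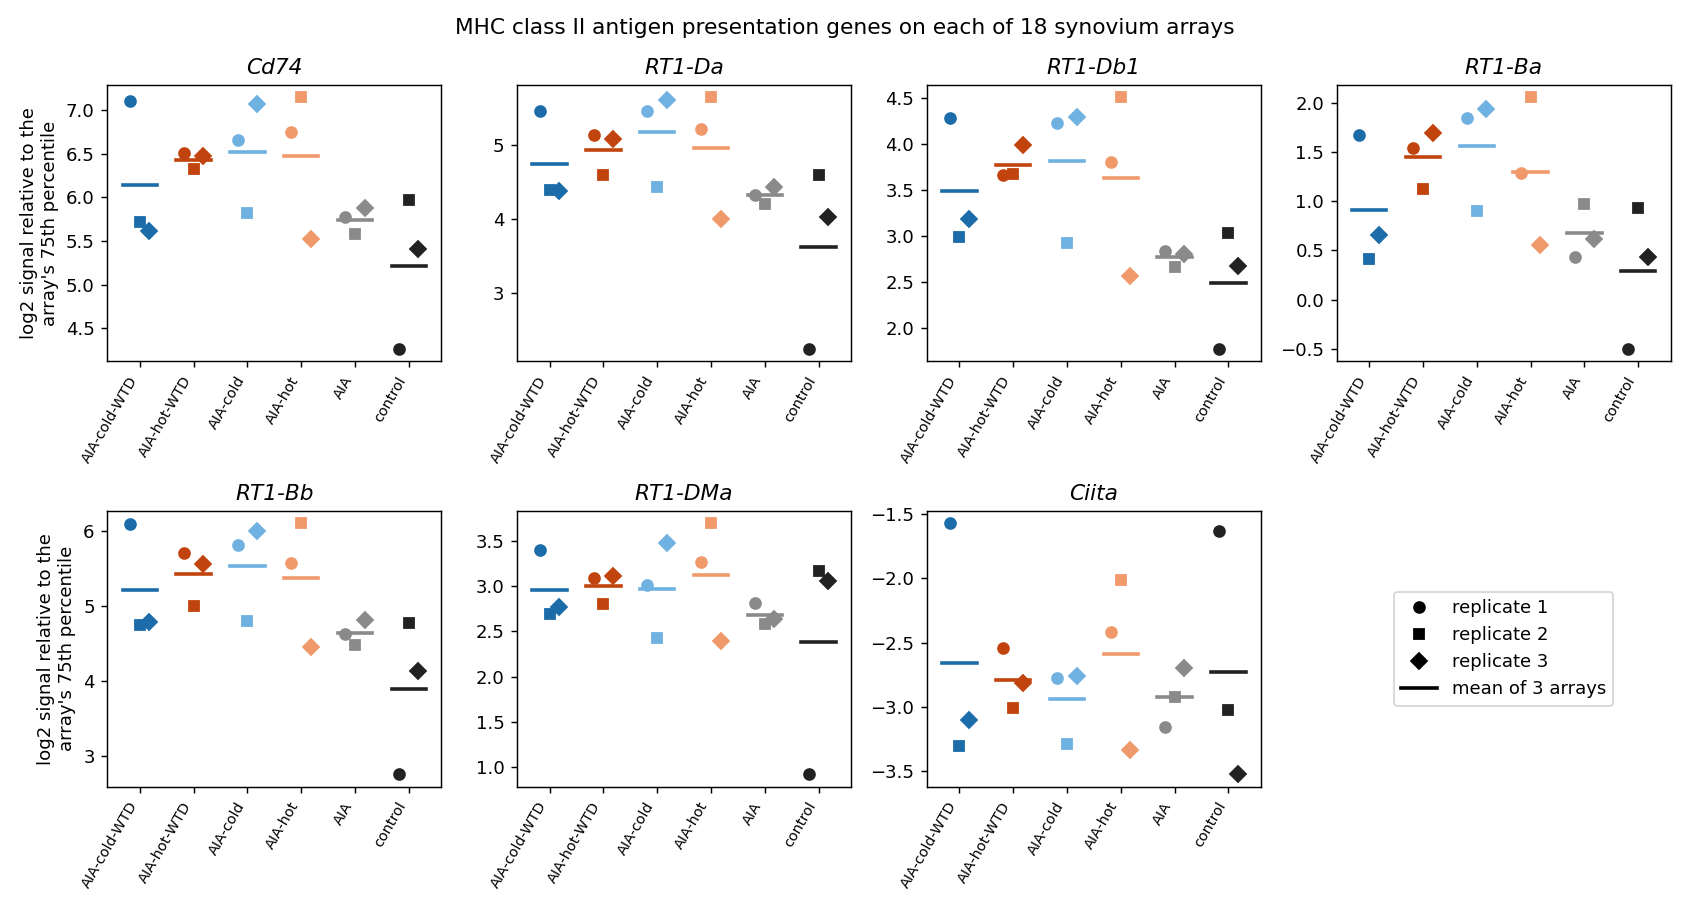
Log2 signal relative to each array's 75th percentile (vertical axes, each with its own range) of the 7 tested genes on the 3 arrays of each of 6 groups (horizontal axes). Symbols are replicates and lines are group means. Control replicate 1 is the lowest of 18 arrays for 6 genes and near the top for Ciita, and the AIA arrays lie close together.

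No member passed an adjusted p of 0.05 in any of the 11 comparisons of 2 groups, in the difference of the WTD effects or in limma's moderated F-test over all 6 groups, which 0.0297% of all genes passed. In the F-test 0 of 7 members had an unadjusted p under 0.05, against 10.8% of genes. For AIA-cold against control, 0 of 7 members passed in limma, against 0.534% of all genes, and 5 had an unadjusted p under 0.05 with a higher mean, against 7.45% of genes. The 5 were Cd74, RT1-Da, RT1-Db1, RT1-Ba and RT1-Bb, and the median difference over the 7 members was 1.30, against -0.04 over all genes. For AIA-hot against control the same 5 had an unadjusted p under 0.05, against 4.62% of genes, with 0 of 7 passing, against 0.0551%. The adjusted p there ran between 0.289 for RT1-Bb and 0.929 for Ciita. With arrays weighted by their estimated quality, 5 members passed for AIA-cold and 5 for AIA-hot against control, while limma's count over all genes was 6221 for AIA-cold and 4073 for AIA-hot. All these comparisons share the 3 control arrays. The counts of unadjusted p, here and for the treated groups below, include control replicate 1, the lowest array for those 5 members.

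The treated groups were set against control as well. In AIA-hot-WTD, 0 of 7 members passed, against 0.0805% of genes, and 5 had an unadjusted p under 0.05 in limma, against 4.58%. Cd74, RT1-Db1, RT1-Ba and RT1-Bb did not overlap with control in that group, 4 of 7 members against 6.78% of genes, with the smallest adjusted p at 0.228 for RT1-Bb. In AIA-cold-WTD, 0 of 7 passed, against 0.0297% of genes, and RT1-Bb alone had an unadjusted p under 0.05, against 5.74%. The smallest adjusted p there was 0.272.

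AIA alone gave the smallest difference from control of the 5 arthritis groups for 6 of 7 members, all but Ciita. Here 0 of 7 members passed in limma, against 0% of genes, and 0 had an unadjusted p under 0.05, against 2.48%. The differences ran between -0.20 for Ciita and 0.75 for RT1-Bb, and their median was 0.38, which became 0.01 without control replicate 1.

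Leaving out control replicate 1 lowered the differences from control of all members but Ciita. It turned the sign of RT1-DMa in AIA-cold-WTD, AIA-hot-WTD, AIA-cold and AIA, of RT1-Db1 and RT1-Ba in AIA, and of Ciita in AIA-hot-WTD, AIA-cold and AIA. Without it Ciita was above control in all 5 arthritis groups, by 0.61 in AIA-cold-WTD, 0.49 in AIA-hot-WTD, 0.33 in AIA-cold, 0.69 in AIA-hot and 0.35 in AIA. Without it the AIA-cold minus control differences were 0.83 for Cd74, 0.85 for RT1-Da, 0.97 for RT1-Db1, 0.88 for RT1-Ba and 1.08 for RT1-Bb. Their adjusted p in limma then ran between 0.344 and 0.477. The median over 7 members became 0.46 in AIA-cold-WTD, 0.74 in AIA-hot-WTD, 0.85 in AIA-cold and 0.69 in AIA-hot.

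**Figure D3:**
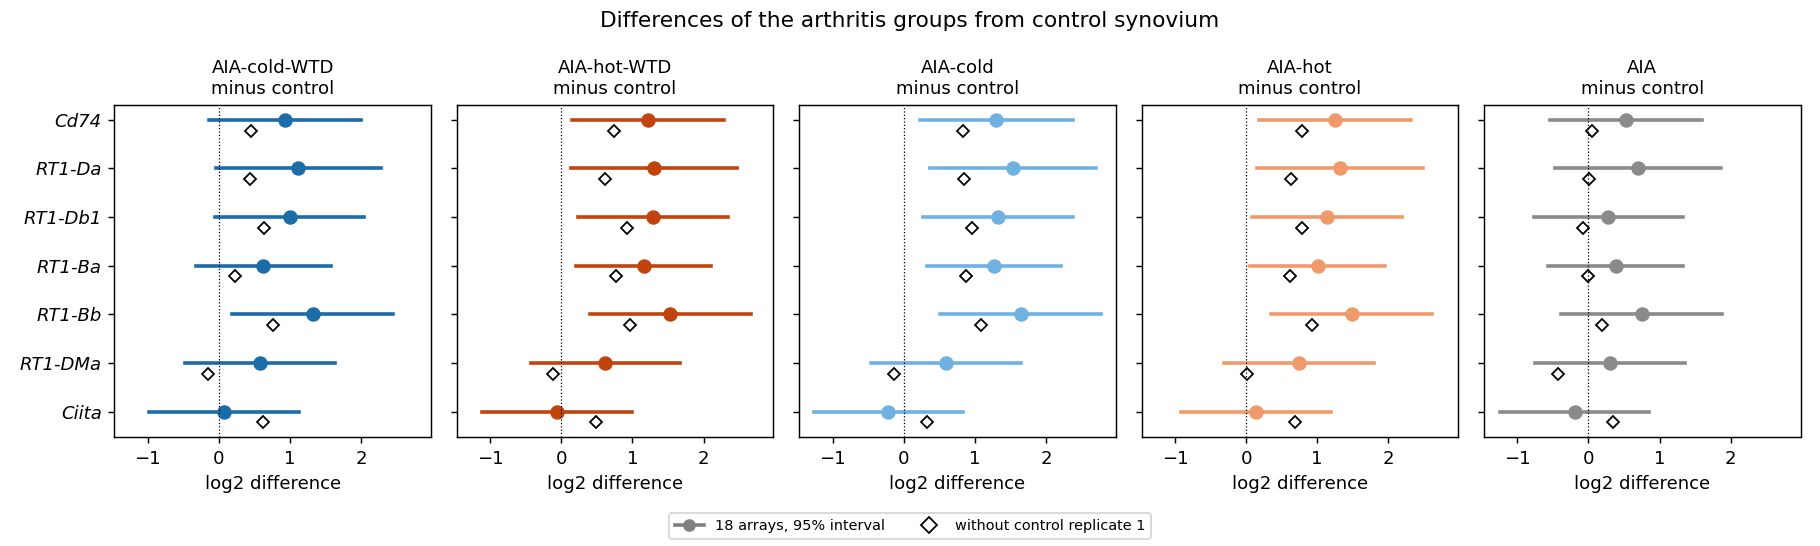
Log2 difference from control (horizontal axes) of each tested gene in the 5 arthritis groups, with 95% intervals of the limma fit over 18 arrays as bars and the value without control replicate 1 as open diamonds. The AIA-cold value of Cd74 is 1.30 with all arrays and 0.83 without that control array, and the RT1-DMa diamonds lie near or below 0.

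Against AIA, the comparison that leaves control out, AIA-cold was higher for 6 of 7 members, with differences up to 1.05 for RT1-Db1 (95% interval -0.01 to 2.10, limma adjusted p = 0.553). In that comparison 0 of 7 passed, against 0% of genes, and AIA-cold shared no slide with AIA. RT1-Da and RT1-Db1 did not overlap between the 2 groups, 2 of 7 members against 10.7% of genes, and 0 had an unadjusted p under 0.05, against 9.05%. AIA-hot was above AIA for all 7, by 0.33 to 0.86, with no limma adjusted p under 0.878 and 0 of 7 passing, against 0%, and 0 with an unadjusted p under 0.05, against 5.13%.

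AIA-cold and AIA-hot, which shared no slide, were close for every member. The differences ran between -0.35 for Ciita and 0.26 for RT1-Ba, with a Cd74 difference of 0.05 (95% interval -1.02 to 1.12), and limma's adjusted p was 0.998 for each of them, with 0 of 7 passing, against 0.00847% of genes. None had an unadjusted p under 0.05, against 5.49% of genes. The interval for Cd74 leaves room for a doubling in either direction.

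The treated groups were also close to each other, with AIA-cold-WTD minus AIA-hot-WTD differences between -0.54 for RT1-Ba and 0.13 for Ciita. There, 0 of 7 members passed in limma, against 0% of genes, and 0 had an unadjusted p under 0.05, against 3.55%. The treated groups shared no slide with each other.

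WTD treatment was set against its own untreated model. In the cold model the treated mean was lower for 6 of 7 members, between -0.65 for RT1-Ba and -0.02 for RT1-DMa, and higher for Ciita, by 0.28. None passed (smallest limma adjusted p = 0.969, against 0.00847% of genes passing). AIA-cold-WTD replicate 1 was among the highest 5 arrays for each of the first 6 genes, and replicates 2 and 3, whose titles carry another letter and which were on another slide, ranked ninth or lower. In the hot model the differences ran between -0.20 for Ciita and 0.15 for both RT1-Db1 and RT1-Ba, with 0 of 7 passing, against 0%. In neither model did a member have an unadjusted p under 0.05, against 6.09% of genes in the cold model and 2.28% in the hot model. The interval for Cd74 was -1.44 to 0.70 in the cold model and -1.11 to 1.03 in the hot model, and the test of the difference between both effects gave -0.34 ± 0.71 (limma adjusted p = 0.989), with 0 of 7 members at an unadjusted p under 0.05, against 4.19% of genes.

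Ordered by mean, control was the lowest group for 6 of the 7 genes, and AIA was next to the lowest for all 7. The exception was Ciita, whose AIA-cold mean of -2.94 was the lowest. Of 35 pairs of neighbours in these orders, 34 had overlapping arrays. The exception was RT1-Db1, where AIA-cold-WTD, at 3.48, was followed by AIA, at 2.77. The gap between neighbours exceeded the standard error of a difference in 5 of the 35.

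The 5 members other than RT1-DMa and Ciita followed each other closely from array to array. Over 18 arrays their pairwise Pearson correlations ran between 0.94 and 0.99, and between 0.92 and 0.99 for the deviations from group means. AIA-hot replicate 2 was highest for RT1-Da, RT1-Db1, RT1-Ba, RT1-Bb, RT1-DMa and Cd74 alike, and AIA-hot replicate 3, of the same group, ranked fourteenth to seventeenth. The mean of the 6 genes was 4.86 on the first of these arrays and 3.25 on the second, which is wider than the gap between any pair of group means. RT1-DMa correlated with the 5 at 0.82 to 0.92.

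Ciita correlated with the other 6 at -0.05 to 0.29 over 18 arrays, and at 0.69 to 0.83 without control replicate 1. AIA-cold-WTD replicate 1 and AIA-hot replicate 2, both at the top for the class II chains, were 2 of the 3 highest arrays for Ciita. All these correlations are across arrays that share the scaling to their 75th percentile.

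**Figure D4:**
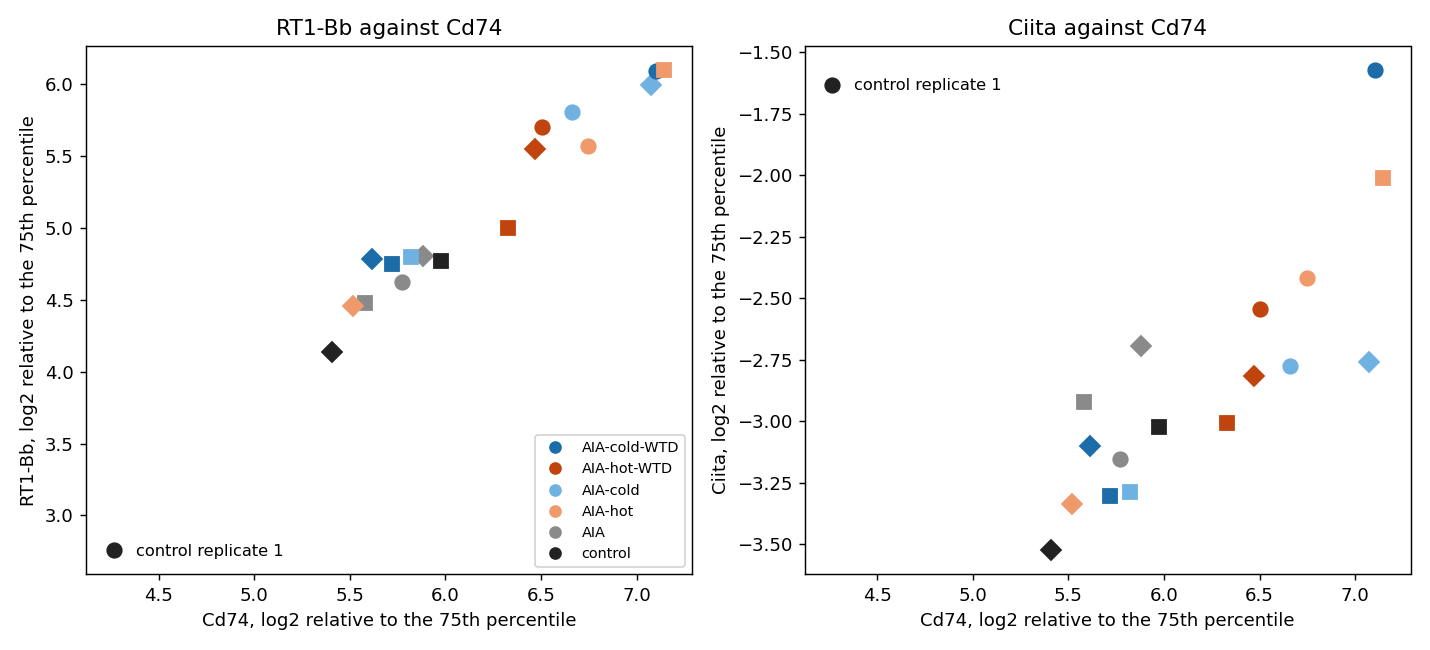
Log2 signal of RT1-Bb (left) and Ciita (right) against that of Cd74 on 18 arrays, coloured by group, with a marker shape for each replicate. Control replicate 1 is lowest for both Cd74 and RT1-Bb, and in the Ciita panel it is second highest at -1.63.

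With the members left out, the 10 genes most like Cd74 over the 18 arrays by Pearson correlation included RT1-Db2 (0.97), Sfrp4 (0.95), Col6a6, Fcrl2, Fcgr2b, Tmem132e, C1s, Ifi30 and Batf (0.91). For comparison, 1 in 100 of all tested genes correlated with Cd74 at 0.80 or more. RT1-Db2 is a further class II beta chain gene, and Ifi30 is a thiol reductase of antigen-processing endosomes. The 10 most like Ciita were Sh2d2a (0.92), Nxn, Dsn1, Ddah1, Peds1, Smtn, Tsc22d1, Tlcd3a, Camk4 and Zfp354c (0.88). The members were left out there too, and control replicate 1 was included. Without that array these 10 genes correlated with Ciita at 0.84 to 0.91, and Ciita correlated with the other 6 members at 0.69 to 0.83. The 10 genes most like Cd74 correlated with Cd74 at 0.86 to 0.96 without that array.

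Among 14 listed partners of the class II pathway, 13 were tested and 0 passed in any comparison. RT1-Db2 had 2.60, 1.31 and 1.54 in AIA-cold-WTD, 2.16, 2.18 and 2.42 in AIA-hot-WTD, 2.52, 1.39 and 2.65 in AIA-cold, 2.18, 2.98 and 1.01 in AIA-hot, 1.31, 1.11 and 1.43 in AIA, and 0.10, 1.44 and 1.09 in control. It was highest on AIA-hot replicate 2 and lowest on control replicate 1, as RT1-Db1 was. Its AIA-cold minus control difference was 1.31 ± 0.49 (limma adjusted p = 0.17), and 0.92 without control replicate 1. RT1-DOa and RT1-DOb, the chains of the DO dimer that restrains DM, were dim, well above background on 5 and 13 of 18 arrays. RT1-DOa passed the filter only through AIA-cold-WTD, where 3 of 3 arrays were well above background, against 0 of 3 control arrays, so no difference from control is given.

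The proteases that trim the invariant chain had a direction against control that hung on 1 array. Ctss, the main one in professional presenting cells, lay at 5.30 to 6.00 on 17 arrays and at 3.76 on control replicate 1. Its AIA-cold minus control difference was 0.35 ± 0.44 (limma adjusted p = 0.69), and -0.39 without that array. Ctsl and Lgmn, the asparagine-specific endopeptidase, were also lowest on control replicate 1, at 5.65 and 1.71. The AIA-cold minus control difference of Ctsl was 0.23, and -0.19 without that array, and that of Lgmn was 0.39, and -0.41 without it. Ifi30 differed by 0.54 in AIA-cold and 0.78 in AIA-hot, and by 0.15 and 0.39 without it. Marchf1, the ligase that sends class II to degradation, was above all control arrays in each arthritis group, by 0.52 to 0.80 (0.31 to 0.60 without control replicate 1), with limma adjusted p between 0.099 and 0.756. Over all genes, 10.8% were above every control array in AIA-cold and 6.78% in AIA-hot-WTD. That share was not counted for AIA, AIA-hot or AIA-cold-WTD, so Marchf1 has no baseline there. These comparisons share the 3 control arrays, and Marchf1 was named after its values were seen. Marchf1 was well above background on 2 of 3 control arrays, as was Irf1, a transcription factor induced by interferons.

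Of 17 listed regulators 14 were tested, and 0 passed. The subunits Rfxap and Rfxank of the factor on the X box differed by -0.25 and -0.18 between AIA-cold and control (-0.046 and -0.22 without control replicate 1), and another subunit, Rfx5, had a probe well above background on 7 arrays and was not kept. Ifng, the strongest known inducer of Ciita, was well above background on none of 18 arrays. Irf1 differed by 0.19 in AIA-cold and 0.34 in AIA-hot, and by 0.13 and 0.28 without control replicate 1.

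Class I presentation genes load peptides for CD8 T cells, and 17 of 20 listed were tested with 0 passing. Their median difference from control was 0.11 in AIA-cold and 0.32 in AIA-hot, beside 1.30 and 1.14 for the class II members. Without control replicate 1 the class I medians were 0.069 and 0.28, beside 0.85 and 0.69. B2m differed by 0.30 in AIA-cold and 0.24 in AIA-hot (0.15 and 0.088 without that array). Tap1, a peptide transporter subunit, differed by -0.30 and 0.33 (0.00015 and 0.64 without it), and the immunoproteasome subunits Psmb8 and Psmb9 by 0.08 and -0.05 in AIA-cold and by 0.48 and 0.32 in AIA-hot. Without it the AIA-cold value of Psmb8 was -0.033 and the AIA-hot value 0.37. Of 8 costimulation genes 4 were tested, with 0 passing. Cd80 was well above background on no array and Cd86 on 6. Cd40 was below every control array in AIA-cold, AIA-hot, AIA-cold-WTD and AIA-hot-WTD, but not in AIA. It differed from control by -0.50 in AIA-cold (limma adjusted p = 0.09), and by -0.52 without control replicate 1. The differences were -0.44 in AIA-hot, -0.35 in AIA-cold-WTD, -0.38 in AIA-hot-WTD and -0.056 in AIA. How many of all genes lay below every control array was not counted.

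Because synovium is a mixture of cells, a change in the number of class II bearing cells and a change in class II RNA per cell cannot be told apart. The macrophage list, with 11 of 12 genes tested, had a summed level of 143 to 185 in AIA-cold-WTD, 172 to 226 in AIA-hot-WTD, 146 to 239 in AIA-cold, 140 to 250 in AIA-hot, 150 to 179 in AIA and 61.0 to 243 in control. The mean log2 of that list was 0.95 on control replicate 1 and 2.67 or more on the other 2 control arrays. Dendritic cell genes, 6 of 12 tested, summed to 15.7 to 23.6 in AIA-cold-WTD, 14.9 to 24.5 in AIA-hot-WTD, 18.4 to 28.3 in AIA-cold, 18.1 to 29.5 in AIA-hot, 15.2 to 18.2 in AIA and 7.09 to 16.2 in control. Of the dendritic cell genes, Batf3, Clec10a and Itgae were well above background on all 18 arrays, Fscn1 on 15, Ccr7 on 8 and Flt3 on 5. Xcr1, Siglech and Cd209a were well above background on no array, and Itgax, Clec9a and Zbtb46 had no probe of that name. Of 12 B and plasma cell genes 4 were tested.

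The mean of the 6 class II genes correlated across 18 arrays with the macrophage list at 0.73, with the dendritic cell list at 0.68 and with the T cell list at 0.51. Without control replicate 1 these were 0.42, 0.83 and 0.70. The endothelial list ran the other way, at -0.79 (-0.58 without that array), and the synovial fibroblast list correlated at 0.57 (0.56 without it). The adipocyte list correlated at -0.15, and at -0.66 without it, and the cartilage list at -0.28, and at 0.51 without it. The B and plasma cell list was at 0.53 (0.31), skeletal muscle at -0.12 (-0.13) and erythroid cells at 0.10 (-0.052). Endothelial genes summed to 55.7 to 91.9 in AIA-cold-WTD, 74.6 to 99.1 in AIA-hot-WTD, 80.0 to 100.02 in AIA-cold, 64.4 to 99.2 in AIA-hot, 95.9 to 115 in AIA and 84.9 to 180 in control. Cartilage genes, 10 of 12 tested, had a summed level of 3153 on control replicate 1, against 89.2 or less on the other 2 control arrays and 273 or less on the 15 arthritis arrays. None of these lists had a gene that passed in any comparison, and their part in the class II differences was not tested.

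**Figure D5:**
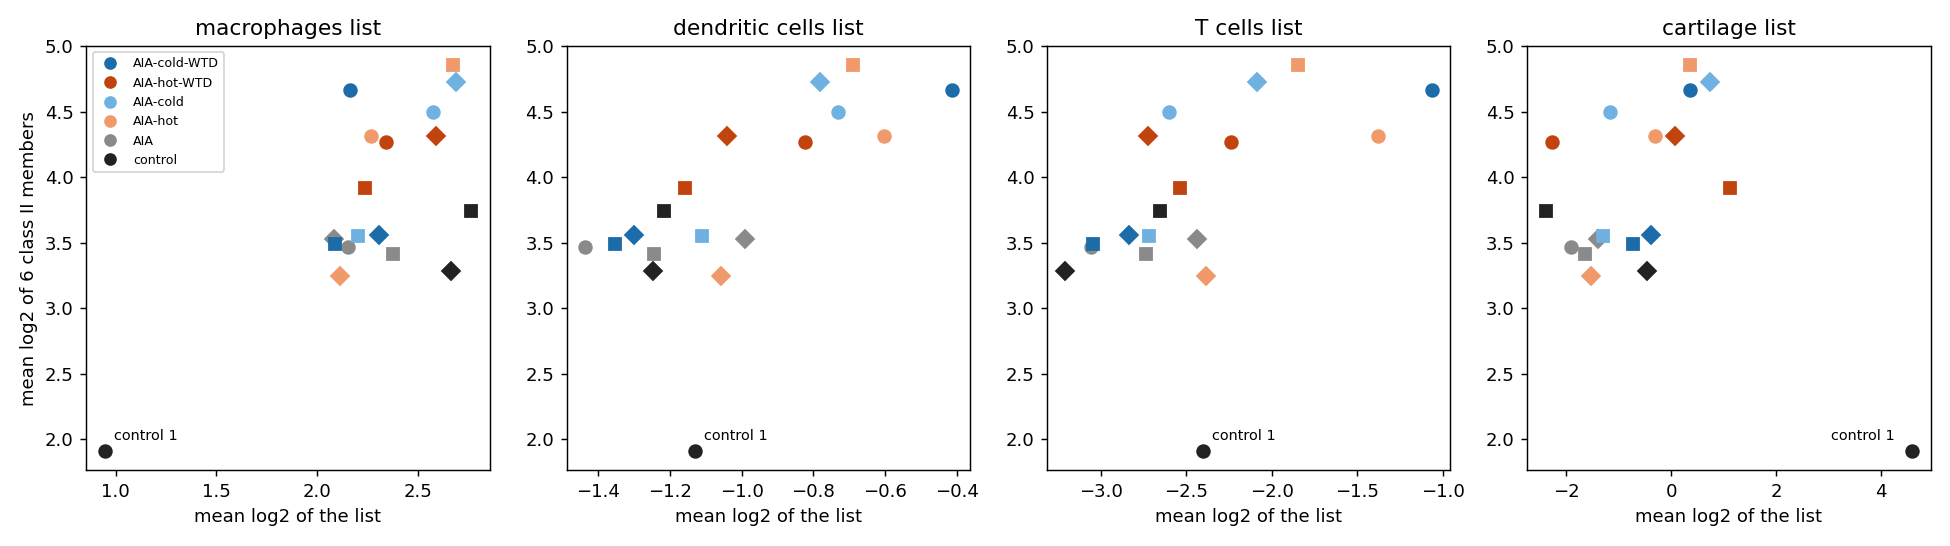
Mean log2 signal of the 6 class II genes (vertical axis) against the mean of the tested genes of the macrophage, dendritic cell, T cell and cartilage lists (horizontal axes) on 18 arrays, coloured by group. Control replicate 1 has the lowest class II and macrophage means and the highest cartilage mean, at 4.59.

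The arrays came from 5 slides, and no slide held control together with AIA-cold, AIA-hot or a treated group. AIA-cold shared no slide with AIA or AIA-hot, and the treated groups shared none with each other. Within slide 2, the mean of the 6 class II genes was 1.11 higher on 2 AIA-hot arrays than on 2 AIA arrays, with no overlap. Within slide 3 it was 0.92 higher on 3 AIA-hot-WTD arrays than on 1 AIA-hot array. Within slide 4 it was 0.41 higher on 1 AIA-cold-WTD array than the mean of 3 AIA-cold arrays, opposite in direction to the comparison over all arrays. Within slide 1, 1 AIA array was 0.49 above the mean of 3 control arrays and inside their range. For each pair of groups without a shared slide, slide and group cannot be told apart within slides.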

How the data were processed

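The labels describe total RNA of knee synovium from 78 male Lewis rats in 10 groups, and 18 arrays of 6 groups were used here, grouped by the group label. Agilent scanner files hold intensity values, deposited per spot by the authors' scanner software (Agilent's Feature Extraction, version 10.7; the submitters' processing notes name it and limma). The authors' series table holds log2 values per probe, deposited after the authors brought the arrays to a common distribution, as the values show, by a function not given in the sources used here, and served as an alternative.

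The processed intensity, already corrected for background per the file headers, was averaged over spots of a probe after control spots and outlier flags were left out. Values are its log2 minus each array's 75th percentile over gene probes. A probe was kept if 1 or more groups had all of their 3 arrays well above background (28270 probes), and the brightest kept probe stood for a gene. Groups were compared with limma 3.58.1 in R 4.3.3, as 1 fit of 18 arrays with 12 residual and 2.29 prior degrees of freedom and Benjamini-Hochberg adjustment over 23606 genes, at 0.05. The number of arrays limits the precision. The fit was tested on simulated data.

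The members and gene lists were chosen with earlier results of these data known. Genes named are all members and their probes, a set of listed pathway genes, called or not, and the 10 genes most like Cd74 and Ciita. Irf8 and Nlrc5 had no probe of that name. Some genes of these sets are not reported here. Marchf1 and the probes in the closing section were named after their values were seen. Alternatives covered background correction, normalization, dim-probe filters, probe averaging, slide, array weights, the groups in the fit and each array left out.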

Additional observations from a re-analysis of the deposited data

Results flagged for a closer look

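Some probes carry class II names that are not among the 8 genes, and 2 of them were above every control array in a group, with all 3 arrays of both groups well above background. The probe of NP516919, described in the files as an MHC class II antigen of Rattus rattus, was 0.87 log2 units higher in AIA-hot-WTD than in control, and 0.70 higher without control replicate 1. The probe of TC587415, a partial match to the mouse E beta chain, was 0.25 higher in AIA-cold than in control, and 0.32 higher without that array. No other probe of this kind met these conditions in any arthritis group, and these 2 met them in no other group. Among all genes, 10.8% were above every control array in AIA-cold and 6.78% in AIA-hot-WTD. The 2 probes were picked after their values were seen, so their place above control does not set them apart from other genes. No outlier test applies to groups of 3 arrays.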

How the results depend on the processing

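Across 28 alternatives, 0 members passed in any comparison under 27 of them, with the smallest adjusted p at 0.0601. Under those 27, 94 of 2233 member differences had the opposite sign to the one reported. Array weights, which limma estimated between 0.0874 for control replicate 1 and 5.15 for AIA-cold-WTD replicate 2, gave 5 members for AIA-cold against control, 5 for AIA-hot against control, 1 for AIA-hot-WTD against control, 1 for AIA-cold-WTD against AIA-cold and 5 for any difference among the 6 groups. The same weights raised the count over all genes to 6221, 4073, 1974, 4281 and 11371, against 126, 13, 19, 2 and 7. Without the weights, alternatives gave 0 to 297 genes for AIA-cold against control, 0 to 61 for AIA-hot, 0 to 3377 for AIA-cold-WTD (7 as reported) and 0 to 85 for AIA-hot-WTD. Without the weights they also gave 0 to 13 genes for AIA against control, 0 to 76 for AIA-cold and 0 to 142 for AIA-hot against AIA, 0 to 82 for AIA-cold-WTD against AIA-cold, 0 to 5 for AIA-cold against AIA-hot and 0 to 53 for any difference. With 1 array left out at a time, Cd74 in AIA-cold minus control ran between 0.83 and 1.68, RT1-Bb between 1.08 and 2.09, RT1-DMa between -0.14 and 0.99 and Ciita between -0.61 and 0.33. Cd74 ran between -0.43 and 0.40 in AIA-cold minus AIA-hot, and between -0.51 and 0.30 in AIA-hot-WTD minus AIA-hot. Slide as a fixed block gave no value for AIA-cold against control, AIA or AIA-hot. It also gave none for AIA-cold-WTD against control or for the treated groups against each other. With slide as a random block, Cd74 gave 1.18 for AIA-cold against control. The cause of these changes was not tested. No paired analysis was possible because the labels give no replicate numbers that link arrays of different groups. With 3 arrays a group, the 95% interval of a Cd74 difference spanned more than 2 log2 units.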
